A study of Mus musculus with 2 samples.

Results

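Natural killer (NK) cells rich in the granzymes D, E, F and G were followed in live CD45+ cells of mouse lung. The rule took cell barcodes with 500 genes or more, 10% or less of mitochondrial UMIs (unique molecular identifiers, each standing for 1 captured transcript), 2 or more UMIs of Ncr1 and Klrb1c together, at most 1 of the Cd3 genes, under 5 of the C1q genes and under 3 of Mki67, Top2a and Birc5. Gzmd, Gzme, Gzmf and Gzmg together also had to reach 50 per 10000 UMIs of the barcode. That gave 139 granzyme-high NK barcodes among 14179 kept ones, 71 in library 1 and 68 in library 2. Because these 4 granzymes chose the barcodes, their levels there are a description, and so is every other gene counted in the same barcodes. No count below supports the choice.

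The mice were wild type (WT) or carried a Siah1a/2 knockout (Siah1a/2 KO), which removes ubiquitin ligases of the Siah family, with 1 sample of each. All had received urethane, a lung carcinogen, the first dose 7 weeks earlier, so no untreated lung was set beside them. Sorting kept DAPI-negative, CD45+ cells, while the sources used here do not give the strain, the age or the number of animals per sample. Each barcode carries a suffix, and no label ties a suffix to a genotype. The 2 sets are called library 1 and library 2 below. A difference between them cannot be told apart from one between genotypes, animals or preparations.

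NK cells are innate lymphocytes that kill infected or transformed cells by releasing granules that hold perforin, which opens the target's membrane, and granzymes, serine proteases that enter through it. Mice carry a cluster of granzyme genes on chromosome 14. Granzyme B drives apoptosis and is made by most cytotoxic lymphocytes, whereas granzymes C to G are rodent genes that are known mainly from strongly stimulated NK cells and killer T cells.

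Gzmc to Gzmg lay in one cluster, and the stretches just before their starts were nearly the same. In GENCODE M21 (GRCm38) the order on chromosome 14, all on the minus strand, was Gzme, Gzmd, Gzmg, Gzmn, Gzmf, Gzmc and Gzmb, over 144.6 kb from 56117626 to 56262260. The matching 90 bases upstream of the 5 genes are shown because they hold the letters in which these promoters differ at and around one octamer. All 7 genes matched the RefSeq promoter table by symbol. The windows are RefSeq sequences of GRCm38.p6, written 5′ to 3′ in the direction of the gene, with the octamer in capitals.
Gzmc, chr14:56234674-56234763: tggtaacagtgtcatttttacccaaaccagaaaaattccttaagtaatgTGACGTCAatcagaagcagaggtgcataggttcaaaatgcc
Gzmf, chr14:56211449-56211538: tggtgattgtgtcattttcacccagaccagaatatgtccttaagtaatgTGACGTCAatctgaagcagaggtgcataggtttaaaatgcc
Gzmg, chr14:56159616-56159705: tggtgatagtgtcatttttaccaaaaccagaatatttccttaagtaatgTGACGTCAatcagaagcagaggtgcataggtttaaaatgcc
Gzmd, chr14:56132614-56132703: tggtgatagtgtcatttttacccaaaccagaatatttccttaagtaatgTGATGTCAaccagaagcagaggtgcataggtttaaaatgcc
Gzme, chr14:56120647-56120736: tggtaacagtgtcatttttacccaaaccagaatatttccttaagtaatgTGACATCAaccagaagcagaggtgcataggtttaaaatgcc

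Between any pair of these windows 80 to 87 of 90 bases were identical. TGACGTCA, the letters of a cyclic AMP response element and its own reverse complement, stood in Gzmc, Gzmf and Gzmg, its first base at -57, -82 and -77 from the start. Counted from the octamer's 5′ end, Gzmd carried C4T and Gzme G5A. Among 32851 promoters, each searched only upstream of the start as for these genes, 1.55% held TGACGTCA on either strand. TGTGGTT, the core letters of a RUNX site, occurred once in each promoter from Gzmb to Gzmg and in 4.396% of all promoters, and was not found in that of Gzmn. TTTAAAA stood just before the start of Gzmd, Gzme, Gzmf and Gzmg, and in 8.10% of all. The AP-1 letters TGANTCA occurred in that of Gzmb alone of the 7 genes, and the STAT letters TTCNNNGAA and the T-box letters TCACACC in none, against 6.75%, 7.02% and 3.33% of all. Both strands were searched, and no 2 of these matches in Gzmc to Gzmg overlapped. They are letter matches in one window and show no binding.

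The transcripts are alike as well, which bears on how reads are told apart. Gzmd and Gzme were 94.8% identical, Gzmd and Gzmg 90.5%, Gzmd and Gzmf 87.6%, and Gzmc 76.1% to 77.1% identical to these 4. Within the last 500 bases, where the 3′ tags of this assay fall, 7 of 411 windows of 90 bases (1.70%) were the same in Gzmd and Gzme, and none in the others matched another granzyme exactly. Counts that separate Gzmd from Gzme therefore carry some uncertainty, while their sum carries less.

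Most NK barcodes had none of the 4 granzymes, and those at the chosen level were the tail of a wide spread. Of 1005 NK barcodes of library 1, 608 (60.5%) had no UMI of them, and of 921 in library 2, 676 (73.4%). The 71 granzyme-high barcodes were 7.06% of library 1's NK barcodes (exact 95% interval 5.56 to 8.83), and the 68 of library 2 were 7.38% (5.78 to 9.27). These intervals, like all below, cover counting error only, since no library has a replicate. The libraries' shares lay inside each other's intervals.

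No gap separated the granzyme-high barcodes from the rest. In library 1, the 3 nearest inside the limit held 50.03, 50.1 and 52.5 per 10000 and the 3 nearest outside 49.8, 46.7 and 44.7. In library 2 the values were 52.9, 58.1 and 58.5 inside, and 47.4, 46.9 and 44.1 outside. The summed share ran from 50.03 over a median of 134.1 to 518.2 per 10000 in library 1 and from 52.9 over 137.1 to 1250.5 in library 2. The bars between 5 and 500 per 10000 are all low and nearly level in the plot of barcodes by granzyme share, whose bins widen to the right.

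**Figure D1:**
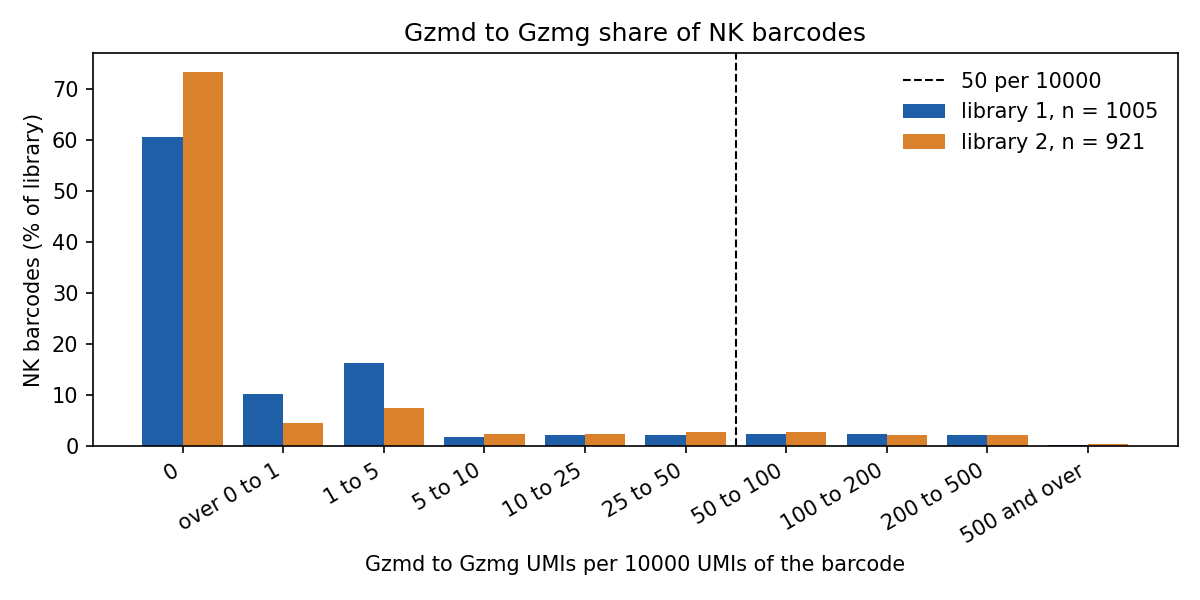
Share of NK barcodes (y axis, percent of the library's NK barcodes) by Gzmd to Gzmg UMIs per 10000 UMIs of the barcode (x axis, bins), library 1 in blue and library 2 in orange. The dashed line marks 50 per 10000; 60.5% and 73.4% of NK barcodes are in the first bin, at 0.

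NK markers were present in the granzyme-high barcodes, most of them at lower levels than in the other NK barcodes. Of 11 NK markers the summed level was 13617 CPM in library 1 and 12063 in library 2, against 13551 and 14587 in granzyme-low NK barcodes, where CPM is the UMIs of a gene per 1000000 UMIs of the class. Klrd1, the CD94 chain of NK receptors, was at 1274 CPM in the granzyme-high barcodes of library 1 and 1304 in library 2, against 1203 and 1240 in granzyme-low NK barcodes. Tyrobp, the adaptor DAP12, was at 3351 and 2829 CPM, against 3073 and 2747. Ncr1 and Klrb1c, which the rule used, were at 540 and 536 CPM against 607 and 641, and at 313 and 296 against 401 and 409. Of the 9 other markers, 5 were lower and 1, Prf1, higher with the 95% intervals of the log2 ratio on one side of 0 in both libraries, and the medians of the 9 were -0.37 and -0.61. Of 2831 genes outside the rule, 16.4% were lower and 6.71% higher by this measure. Eomes, the transcription factor that marks conventional NK cells, had a UMI in 57.7% and 61.8% of granzyme-high and in 69.5% and 67.8% of granzyme-low NK barcodes. In macrophages, at median depths of 10775.5 and 11494 UMIs, the shares were 1.31% and 0.299%.

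The 12 T-cell markers summed to 1283 and 1391 CPM, against 1365 and 1433. Trac, the constant part of the T-cell receptor alpha chain, had a UMI in 11 of 71 and 11 of 68 granzyme-high barcodes, and none had 5 or more. Trbc1, known to be transcribed in NK cells from the unrearranged locus, was at 732 and 726 CPM, against 709 and 727. The B-cell gene Cd79a was at 0 in all 139 barcodes, and the myeloid gene Lyz2 had 1 UMI in library 1 and 0 in library 2. Apoe, a macrophage transcript, was at 96.0 and 24.9 CPM, against 126 and 54.0 in granzyme-low NK barcodes. The 7 ILC1 markers summed to 395 and 361 CPM, against 221 and 205 in granzyme-low NK barcodes. Among them, 2 were at 50 CPM or more in the higher state of each library. Both of these were higher with the intervals above 0 in both libraries. Itga1, which conventional NK cells can also carry, was at 248 and 203 CPM, against 105 and 84.9. Cd200r1 was at 0, Zfp683 at 1.88 and 0.995 CPM and Il7r at 6.59 and 3.98.

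Granzyme-high barcodes were deeper than the other NK barcodes. Their median was 15306 UMIs in library 1 and 14200 in library 2, against 9446.5 and 7869 for granzyme-low NK barcodes. At 3000 UMIs each they held slightly fewer genes, with medians of 1274 and 1300.5 against 1336 and 1364.5. No barcode sequence of theirs occurred in both libraries. Doublets were not called, and limits on Cd3 and C1q were the only guard. The part of doublets in the depth was not tested.

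Granzyme RNA filled a sizeable part of the transcriptome of these barcodes. Per barcode, Gzmf ran from 0 over a median of 73.2 to 369.1 per 10000 in library 1 and from 0 over 47.7 to 942.75 in library 2. Gzmd ran from 0 over 44.6 to 425.4 and from 0 over 45.6 to 296.4, and Gzme from 0 over 19.7 to 73.6 and from 0 over 20.8 to 104.7. Gzmg had a median of 0 in both, with UMIs in 32.4% and 35.3% of the barcodes. All 4 thus had barcodes without a single UMI. Summed, Gzmf was at 8898 CPM in library 1 and 10843 in library 2, and in granzyme-low NK barcodes at 52.0 and 32.7. Gzmd was at 5717 and 6052 CPM, against 157 and 143. Gzme was at 2337 and 2433 CPM, against 58.9 and 77.1. Gzmg, the rarest of the 4, was at 338 and 824 CPM against 1.81 and 3.85, and 36.2% and 26.1% of its UMIs came from a single barcode of each library.

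Gzmc took no part in the choice and was the second most abundant transcript of these barcodes in both libraries, with 1.89% and 2.19% of their UMIs. Its level was 18925 CPM (library 1) and 21934 CPM (library 2), while granzyme-low NK barcodes had 4591 and 4750. The log2 ratios were 2.04 (95% interval 2.02 to 2.07) and 2.21 (2.18 to 2.23). Every granzyme-high barcode had Gzmc UMIs, from 11.6 to 520.6 per 10000 in library 1 and from 15.9 to 494.7 in library 2.

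The classical killing genes differed less. Gzmb was at 3480 and 3419 CPM against 2557 and 3249, log2 ratios of 0.44 and 0.07, the second of which was below 0 under 3 alternatives (-0.19 to -0.054). Prf1, perforin, was at 1960 and 1961 CPM against 1233 and 1354, log2 ratios of 0.67 and 0.53. Gzma differed by library: it was at 4553 CPM against 4432 in library 1 (0.04) and at 3509 against 5560 in library 2 (-0.66). Gzmk was at 0.942 and 0.995 CPM in granzyme-high barcodes and Gzmm at 5.65 and 6.96, and Gzmn, which sits between Gzmg and Gzmf, had 1 UMI in the granzyme-high barcodes of library 1 and 0 in library 2.

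Gzmd and Gzmf were counted barcode by barcode. Setting 25 per 10000 as on, a level chosen after the values were seen, both were on in 19 of 71 barcodes of library 1, only Gzmd in 28, only Gzmf in 23 and neither in 1. In library 2 both were on in 25 of 68, only Gzmd in 29, only Gzmf in 12 and neither in 2. Gzmf was nearly absent or abundant, with 25 and 24 barcodes under 5 per 10000 and 4 and 7 between 5 and 25. The plot of Gzmd against Gzmf shows few points between these levels.

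The limit on the sum by itself leaves out barcodes low in both genes, so the same count was made on NK barcodes with Gzmc at 100 or more per 10000, a gene outside the rule. Of 162 such barcodes in library 1, both were on in 15, only Gzmd in 33, only Gzmf in 11 and neither in 103. Of 167 in library 2 the numbers were 23, 33, 7 and 104. There, barcodes with both on outnumbered those with only Gzmf on, 15 against 11 and 23 against 7. In NK barcodes with less Gzmc the order was the other way, with both on in 4 and 2 and only Gzmf in 14 and 7. Among granzyme-high barcodes Gzmc ran with Gzmd more than with Gzmf. The part of the Gzmc limit in these counts was not tested.

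**Figure D2:**
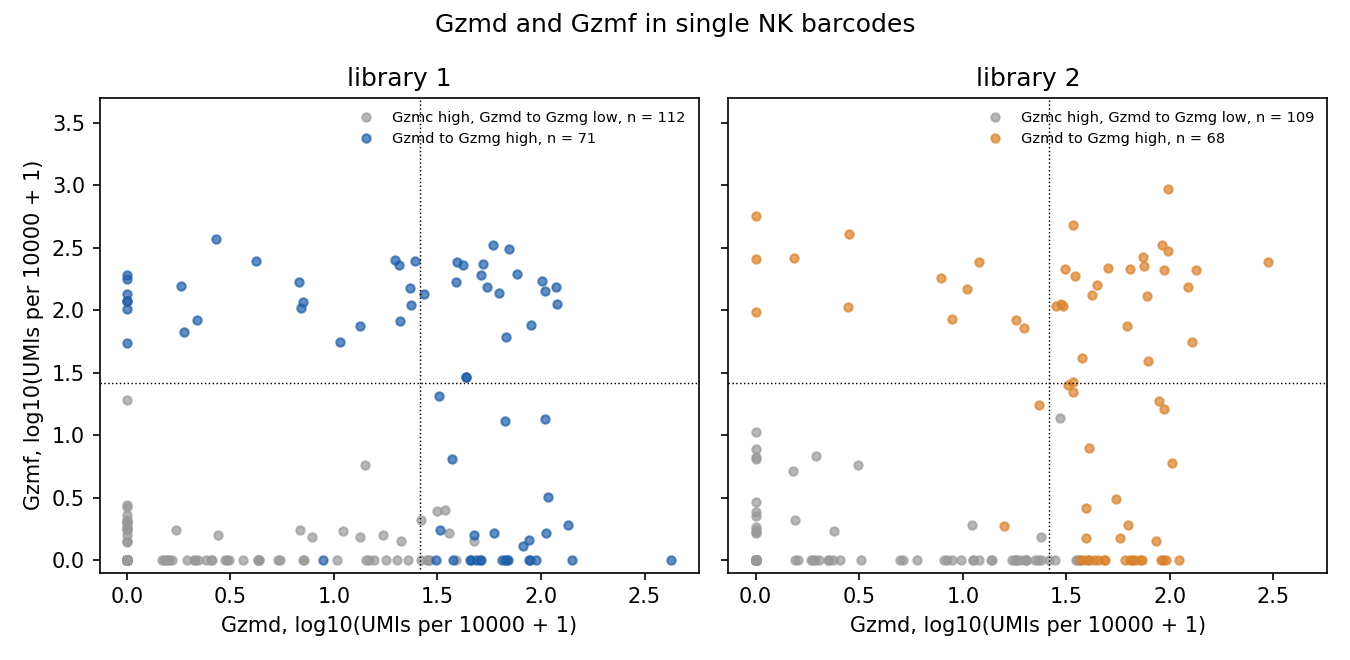
Gzmd (x axis) against Gzmf (y axis) in single NK barcodes, both as log10(UMIs per 10000 + 1), one panel per library. Coloured points are the 71 and 68 granzyme-high barcodes and grey points the 112 and 109 NK barcodes with Gzmc at 100 or more per 10000 that were low in Gzmd to Gzmg; dotted lines mark 25 per 10000. Between 5 and 25 per 10000 of Gzmf lie 4 and 7 of the coloured points.

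Within the granzyme-high barcodes the granzymes were also set against each other. Over the granzyme-high barcodes Spearman's rho of Gzmd with Gzme was 0.67 in library 1 (71 barcodes) and 0.67 in library 2 (68 barcodes), and of Gzme with Gzmf -0.27 and -0.22. For Gzmd with Gzmc it was 0.53 and 0.42, and for Gzmf with Gzmc -0.20 and -0.04. The barcodes share a library and were chosen on the sum of 4 of these genes, which leaves out barcodes low in both Gzmd and Gzmf, and reads of Gzmd and Gzme are the hardest to separate, so these are descriptions only.

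Barcodes with and without Gzmf also differed in other granule genes in library 1. Gzma was at 2434 CPM in its 42 barcodes with Gzmf on and at 7477 in its 29 with Gzmf off, while in library 2 it was at 3255 and 3816 (37 and 31 barcodes). Gzmc was at 16781 CPM with Gzmf on and 21883 with it off in library 1, and at 19761 and 24553 in library 2. Spp1 was at 7398 and 6340 CPM in library 1 and at 6526 and 5940 in library 2. Barcodes with Gzmf off had to reach the limit mostly through Gzmd, Gzme and Gzmg, and Gzmd ran with Gzmc. The Gzmc difference therefore cannot be told apart from the effect of the choice. A single barcode of each library gave 18.2% and 9.50% of the Gzma UMIs of all granzyme-high barcodes.

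Granzyme-high barcodes lay mostly among NK barcodes high in Gzmc. Of the 71 in library 1, 50 (70.4%) had 100 or more Gzmc per 10000, and of the 68 in library 2, 58 (85.3%). Of NK barcodes with Gzmc at 100 or more per 10000, 50 of 162 (30.9%, 95% interval 23.9 to 38.6) in library 1 and 58 of 167 (34.7%, 27.5 to 42.5) in library 2 were granzyme-high. Of those with less Gzmc, 21 of 843 (2.49%, 1.55 to 3.78) and 10 of 754 (1.33%, 0.638 to 2.43) were. The other 112 and 109 Gzmc-high NK barcodes, low in Gzmd to Gzmg, served as a second comparison that was added after the data had been seen.

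Against all granzyme-low NK barcodes, 20 genes were at least 2-fold higher and 51 at least 2-fold lower in both libraries, of 2831 genes outside the rule with 50 CPM or more in the higher state of each library. These are 0.706% and 1.8% of the genes, the shares to set beside the 2-fold counts of gene lists below. There is no test here, because barcodes of 1 library are not replicates. The median log2 ratio over all of these genes was -0.09 in both libraries.

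Against the Gzmc-high NK barcodes that were low in Gzmd to Gzmg, 5 genes were at least 2-fold higher and 2 lower in both libraries, 0.184% and 0.0737% of 2713. Of the 20 higher genes 4 were still 2-fold higher, and of the 51 lower ones 2 were still 2-fold lower. The median log2 ratio of the 20 went from 1.66 and 1.77 to 0.55 and 0.68, and that of the 51 from -1.40 and -1.50 to -0.38 and -0.52. The open symbols in the plot of named genes show this shift toward 0.

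**Figure D3:**
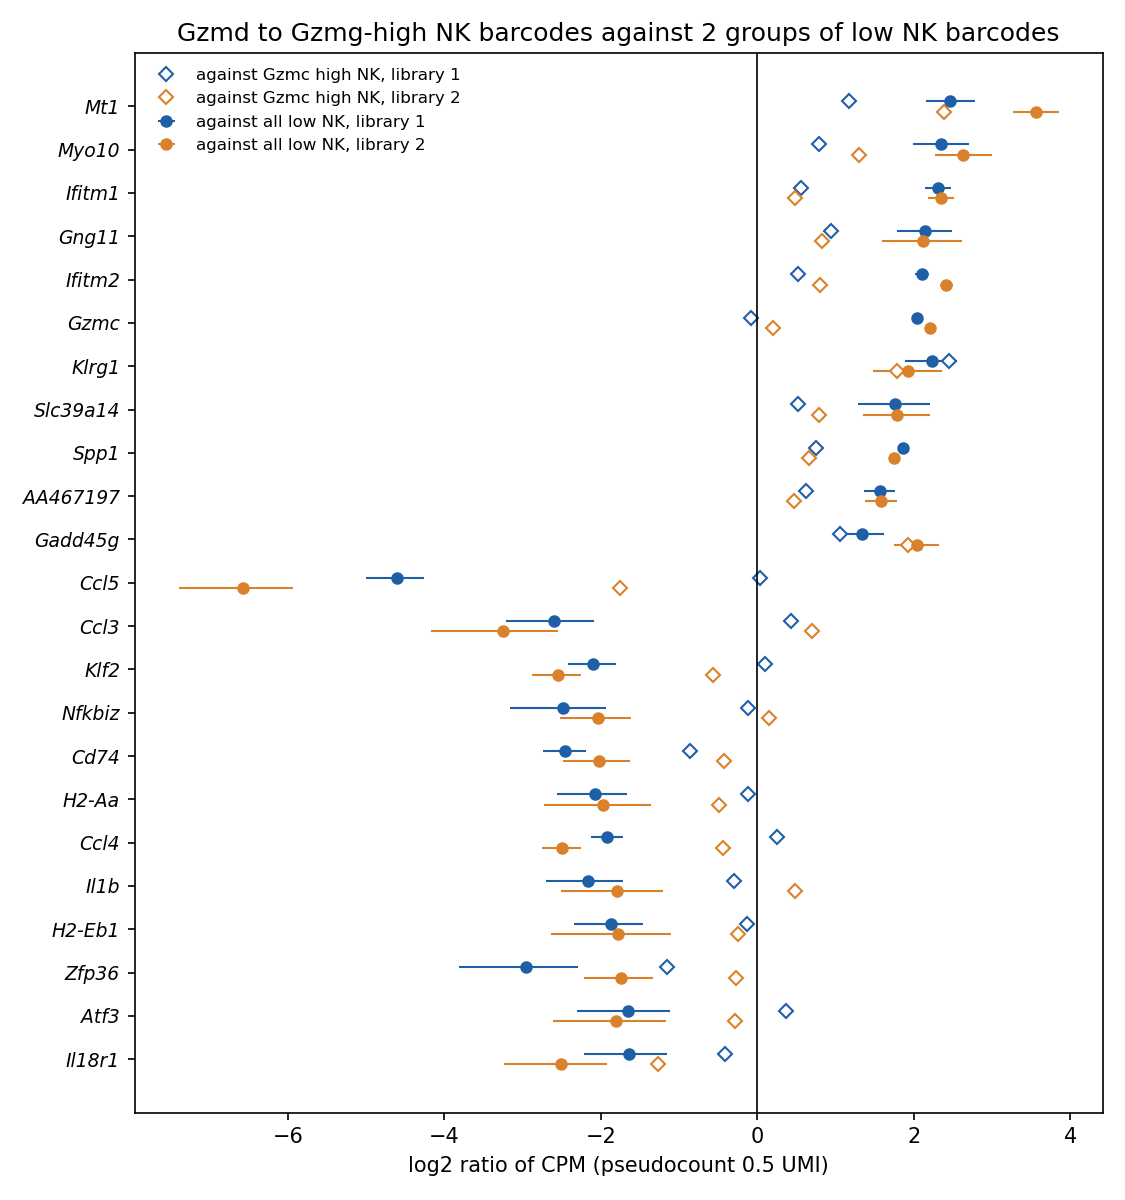
Log2 ratio of CPM (x axis, pseudocount 0.5 UMI) of named genes (y axis) in granzyme-high NK barcodes, library 1 in blue and library 2 in orange. Filled circles with exact 95% intervals are against all granzyme-low NK barcodes, and open diamonds against Gzmc-high, Gzmd to Gzmg-low ones. Most diamonds lie nearer 0 than their circle; that of Klrg1 does not in library 1, at 2.45 against 2.23.

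Spp1, the secreted matrix protein and cytokine osteopontin, was the most abundant of the other higher genes. Spp1 had 6954 CPM (library 1) and 6260 CPM (library 2), against 1905 and 1867 in granzyme-low NK barcodes, with log2 ratios of 1.87 (1.83 to 1.91) and 1.75 (1.70 to 1.79). All 71 granzyme-high barcodes of library 1 and 98.5% of those of library 2 had a UMI of it. Gzmc-high, Gzmd to Gzmg-low NK barcodes lay between, at 4133 and 3943 CPM, as the plot of granzymes by class shows.

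Small membrane proteins of the interferon-induced transmembrane family, known to restrict virus entry, were among the higher genes. Ifitm2 was at 1490 and 1938 CPM against 346 and 363, and Ifitm1 at 455 and 499 against 91.9 and 97.8. In the Gzmc-high, Gzmd to Gzmg-low barcodes Ifitm2 was at 1043 and 1116 CPM, leaving log2 ratios of 0.51 and 0.80.

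Myo10, an unconventional myosin of filopodia, was at 101 and 115 CPM against 19.8 and 18.6, log2 ratios of 2.35 (1.99 to 2.70) and 2.63 (2.27 to 2.998). Itga1, the CD49a chain of a collagen receptor of tissue-resident lymphocytes, was at 248 and 203 CPM against 105 and 84.9. Itgb3 was at 89.5 and 84.6 CPM against 34.3 and 37.6. In Gzmc-high, Gzmd to Gzmg-low barcodes Itga1 was at 206 and 174 CPM, log2 ratios of 0.27 and 0.22.

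Mt1, metallothionein 1, was at 131 and 257 CPM against 23.7 and 21.8, with 20.9% and 25.97% of its UMIs from 1 barcode in each library. Slc39a14, a zinc and iron importer, was at 53.7 and 67.7 CPM against 15.9 and 19.7. Mt1 was one of the 5 genes 2-fold higher against Gzmc-high barcodes, with log2 ratios of 1.17 (0.78 to 1.56) and 2.38 (2.00 to 2.80).

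Klrg1, an inhibitory receptor of differentiated NK and T cells, was higher in granzyme-high barcodes than in either comparison group. It was at 108 and 66.7 CPM, against 23.2 and 17.5 in all granzyme-low and 19.6 and 19.2 in Gzmc-high, Gzmd to Gzmg-low NK barcodes. The latter gave log2 ratios of 2.45 (1.88 to 3.09) and 1.78 (1.13 to 2.50). A UMI was seen in 39.4% and 38.2% of granzyme-high barcodes against 13.7% and 9.73% of granzyme-low ones, and after thinning to 3000 UMIs in 12.9% and 13.6% against 6.59% and 4.49%, and 4.50% and 6.60% of the Gzmc-high ones.

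Gadd45g and Serpinb9b were also among the genes higher against Gzmc-high barcodes. Gadd45g, a stress and growth-arrest gene, was at 121 and 157 CPM against 58.2 and 41.2. Serpinb9b, a serpin of the family that protects killer cells from their own granzymes, was at 194 and 116 CPM against 76.6 and 46.1. Of these 5 and 2 genes, 1 and 1 were also called after thinning to 3000 UMIs. In NK barcodes with 2 or fewer UMIs of H2-Aa, H2-Ab1, H2-Eb1, Lyz2 and Apoe, 3 and 0 of them were. The 2 lower genes were Sla, an adaptor that dampens antigen receptor signals, at 25.4 and 26.9 CPM against 56.3 and 75.2, and the interferon-stimulated gene Ifit1, at 38.6 and 26.9 against 86.7 and 99.3.

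Other named higher genes were Gng11, a G-protein gamma subunit, at 97.0 and 51.7 CPM against 22.1 and 11.96, and AA467197, at 265 and 267 against 89.5 and 88.9. Tnfrsf9, the co-stimulatory receptor 4-1BB, was at 726 and 789 CPM against 305 and 366, and 100% and 98.5% of granzyme-high barcodes had it. S100a4, a calcium-binding protein, was at 1187 and 1059 CPM against 520 and 501, and at 1171 and 1206 in the Gzmc-high, Gzmd to Gzmg-low barcodes.

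Over single NK barcodes, the 8 genes outside the rule that ran most alongside the summed granzymes were Gzmc, Ifitm2, Myo10, Spp1, Gm36723, Itga1, S100a4 and Mt1. Pearson's r of log(1 + UMIs per 10000) was 0.56 in 1005 barcodes of library 1 and 0.59 in 921 of library 2 for Gzmc. It was 0.33 and 0.41 for Mt1, the lowest of the 8, of 7354 genes ranked. Barcodes of a library share its depth and free RNA, and no p is given.

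Ccl5, Ccl4 and Ccl3 were lower in the granzyme-high barcodes than in all granzyme-low NK barcodes. Ccl5, which draws T cells and monocytes, was at 59.3 CPM in library 1 and 16.9 in library 2, against 1454 and 1660 in granzyme-low NK barcodes, log2 ratios of -4.60 (-5.00 to -4.26) and -6.58 (-7.40 to -5.94). Thinned to 3000 UMIs, 15.7% and 6.06% of granzyme-high barcodes had a Ccl5 UMI, against 50.4% and 48.5% of granzyme-low ones and 12.3% and 13.0% of B cells. In macrophages the shares were 31.8% and 38.1%. The shares of granzyme-high barcodes were inside the exact intervals of B cells, 5.08% to 23.7% and 2.78% to 33.6%. Those intervals rest on 57 and 23 B cells and are too wide to tell background from low expression. Neither is therefore read from these shares. Without thinning they were 46.5% and 19.1%, against 69.9% and 63.0% of granzyme-low ones.

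Ccl5 was also low in the other Gzmc-high barcodes. The Gzmc-high, Gzmd to Gzmg-low NK barcodes had 58.2 CPM of Ccl5 in both libraries, and granzyme-high barcodes had a log2 ratio to them of 0.03 (-0.46 to 0.51) in library 1 and -1.75 (-2.63 to -1.02) in library 2. Ccl4, another chemokine of activated lymphocytes, was at 193 and 137 CPM against 730 and 775 in all granzyme-low NK barcodes, with 39.0% and 31.2% of its UMIs from 1 barcode. Ccl3 was at 26.4 and 13.9 CPM against 162 and 137.

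Of 21 cytokines and chemokines listed, 9 were at the level, 1 of them (Spp1) at least 2-fold higher and 4 lower in both libraries. Over all genes tested these shares were 0.706% and 1.8%. The median log2 ratios of the 9 were -0.56 and -0.54. The fourth lower one was Ifng, the main macrophage-activating cytokine of NK cells, at 53.7 and 21.9 CPM against 113 and 149. Xcl1, which attracts cross-presenting dendritic cells, stayed within 2-fold at 978 and 795 CPM against 1371 and 1155. Against Gzmc-high barcodes none of 8 passed 2-fold in both libraries.

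Several genes of circulating NK cells were lower. Of 14 at the level, 10 were lower and 1 higher with both intervals on one side of 0, where 16.4% and 6.71% of all genes tested were. Of the same 14, 0 were at least 2-fold higher and 5 lower (among them Klf2, Zeb2, Tcf7 and Klra4), with medians of -0.82 and -0.70. Klf2, which keeps lymphocytes in circulation, was at 87.6 and 84.6 CPM against 378 and 498. Zeb2, a transcription factor of mature NK cells, was at 27.3 and 37.8 CPM against 110 and 80.4. Eomes was at 128 and 121 CPM against 192 and 186. Against Gzmc-high barcodes, none of 12 passed 2-fold and the medians were 0.08 and 0.01.

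Residency and ILC1 genes went both ways. Of 11 at the level, 6 were higher and 3 lower with both intervals on one side of 0, against 6.71% and 16.4% of all genes. Itga1 was 2-fold higher and 0 were 2-fold lower, with medians of 0.39 and 0.44. Rgs1, a brake on chemokine receptors, was at 1950 and 2306 CPM against 1415 and 1644. Cd69, which holds lymphocytes in tissue, was at 172 and 108 CPM against 295 and 305, and Cxcr3 at 28.2 and 18.9 against 54.1 and 52.1. The medians against Gzmc-high barcodes were -0.37 and -0.35, with none of 12 past 2-fold. Of 8 genes of the TGF-beta response, Itga1 was at least 2-fold higher and Cd9 lower, with medians of -0.20 and -0.66. Among all genes tested, 0.706% were 2-fold higher and 1.8% lower.

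Of 14 activating NK receptors and adaptors, 8 were lower and 0 higher with both intervals on one side of 0. By the same intervals 16.4% of all genes tested were lower and 6.71% higher. At 2-fold in both libraries only Klra4 (Ly49D) was lower, at 190 and 215 CPM against 502 and 546, and the medians of the 14 were -0.39 and -0.29. Klrk1, NKG2D, was at 667 and 694 CPM against 977 and 1075. Of 12 inhibitory receptors 5 were lower and 4 higher by the intervals, and only Klrg1 was 2-fold higher and none lower, with medians of -0.19 and -0.17. Ctla4, an inhibitory receptor better known from T cells, was at 123 and 221 CPM against 61.3 and 118, log2 ratios of 1.01 and 0.90.

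Interferon-stimulated genes were lower, also against Gzmc-high barcodes. Of 15 at the level 0 were at least 2-fold higher and 5 lower (Ifit1, Ifit3, Rsad2, Rtp4 and Ifi27l2a). The medians of the 15 were -0.86 and -1.25, and 0.706% and 1.8% of all genes tested were 2-fold higher and lower. Isg15, a ubiquitin-like modifier, was at 266 and 206 CPM against 483 and 387 in all granzyme-low and 399 and 391 in Gzmc-high ones. Irf7, a regulator of interferon genes, was at 143 and 93.5 CPM against 273 and 234. Against Gzmc-high barcodes 1 of 14, Ifit1, passed 2-fold, and the medians were -0.57 and -1.15, where all genes had -0.03 and -0.05.

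Early response genes, which the digestion of tissue is known to induce, were lower too. Of 15 at the level 0 were at least 2-fold higher and 4 lower (Zfp36, Atf3, Nfkbia and Fosb), with medians of -0.59 and -0.96. All genes tested gave 0.706% and 1.8%. Nfkbia, the NF-kappaB inhibitor, was at 234 and 237 CPM against 558 and 760. Nfkbiz, its nuclear relative, was at 22.6 and 43.8 CPM against 129 and 181. The median difference from Gzmc-high barcodes was -0.06 and -0.26. The part of handling in these values was not tested.

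Antigen-presentation and myeloid transcripts were lower. Cd74, the invariant chain, was at 104 and 47.8 CPM against 569 and 197, H2-Aa at 42.4 and 19.9 against 181 and 79.9, and Il1b at 34.8 and 21.9 against 159 and 77.3. The summed macrophage markers were at 330 and 158 CPM in granzyme-high against 434 and 225 in granzyme-low NK barcodes, and neutrophil markers at 7.53 and 8.95 against 54.0 and 16.9. Their part in these differences was not tested. Among NK barcodes with 2 or fewer UMIs of H2-Aa, H2-Ab1, H2-Eb1, Lyz2 and Apoe, 26 and 54 of them granzyme-high, 25 genes were 2-fold higher and 53 lower, of which 16 and 33 were also among the 20 and 51. There the log2 ratio of Il1b in library 2 was 1.05, and after thinning to 3000 UMIs that of Cd74 in library 2 was 0.044. The choice of such barcodes was added after the data had been seen.

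None of 16 mTORC1 and translation genes, 10 of glycolysis and 16 of oxidative phosphorylation passed 2-fold in both libraries. Nor did any of 7 cell cycle genes, from which nothing is read, because both classes were chosen with under 3 UMIs of Mki67, Top2a and Birc5. Glycolysis had medians of 0.05 and 0.31, and Ldha, lactate dehydrogenase A, was at 524 and 655 CPM against 497 and 532. Of 18 lymphoid transcription factors 0 were 2-fold higher and 3 lower (Zeb2, Tcf7 and Nr4a1), against 0.706% and 1.8% of all genes tested. Tbx21, T-bet, was at 82.9 and 65.7 CPM against 73.4 and 81.1. Of 11 genes of IL-2 and IL-15 signalling Tnfrsf9 was 2-fold higher and Pim2 and Socs3 lower, against the same 0.706% and 1.8%. The medians of the 11 were -0.46 and -0.45.

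Of 12 granule packaging and self-protection genes, 5 were higher and 1, Nkg7, lower with both intervals on one side of 0. Among all genes tested 6.71% were higher and 16.4% lower by these intervals. Serpinb6a, a serpin of cytotoxic cells, was the 1 past 2-fold in both libraries, at 109 and 106 CPM against 45.6 and 44.1. Serpinb9b had log2 ratios of 1.65 and 0.80. Srgn, serglycin, on which granule contents are stored, was at 1501 and 1536 CPM against 1423 and 1475, and Nkg7 at 2175 and 2176 against 2307 and 2755. Of 21 cytoskeleton and adhesion genes, S100a4 was at least 2-fold higher and Cd9 lower, where 0.706% and 1.8% of all genes tested were.

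Killer T cells also held these granzymes, with less Gzmc. Among CD8 T barcodes (2 or more UMIs of the Cd3 genes and of Cd8a and Cd8b1), 119 of 2040 (5.83%, 4.86 to 6.94) in library 1 and 147 of 1907 (7.71%, 6.55 to 8.998) in library 2 reached 50 per 10000. Gzmf was at 12613 and 10457 CPM there, near the granzyme-high NK level, and Gzmd lower, at 3765 and 1842. Gzmc was at 2727 and 1958 CPM in these T barcodes against 18925 and 21934 in the NK ones, Spp1 at 2323 and 828 against 6954 and 6260, and Gzma at 142 and 349 against 4553 and 3509.

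Ccl5 and Ifng differed between the granzyme-high NK and CD8 T barcodes the other way. Ccl5 was at 2106 and 2161 CPM in the granzyme-high CD8 T barcodes, near the 2967 and 3448 of other CD8 T barcodes. Ifng was at 1133 and 704 CPM there, above the 382 and 489 of other CD8 T barcodes. Myo10 was at 64.4 and 68.7 CPM in granzyme-high CD8 T barcodes against 17.0 and 18.9 in other CD8 T barcodes. Gzmc was at 2727 and 1958 CPM in the granzyme-high CD8 T barcodes against 251 and 277 in the others. Spp1 was at 2323 and 828 CPM in them against 229 and 235. A UMI of Spp1 was seen in 42.9% and 39.5% of the granzyme-high CD8 T barcodes, against 28.2% and 19.3% of the others. Per granzyme-high CD8 T barcode, the median of Spp1 was 0 per 10000 in both libraries, and that of Gzmc was 3.93 and 1.39. The summed levels of Myo10, Gzmc and Spp1 were thus higher in the granzyme-high barcodes of both cell classes. Klrg1 was at 32.6 CPM in the T barcodes of library 1 and had 1 UMI in those of library 2. These values were set side by side with no test.

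Cycling NK barcodes, with 3 or more UMIs of Mki67, Top2a and Birc5, reached 50 per 10000 in 8 of 104 in library 1 (7.69%, 3.38 to 14.6) and 18 of 101 in library 2 (17.8%, 10.9 to 26.7). Gzmd was at 564 and 1902 CPM in all of them and Gzmf at 730 and 877. Their median depth of 19209.5 and 16484 UMIs was the highest of these classes. The rule leaves these cycling barcodes out of the 139.

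Cells that should lack these genes gave the background. Of macrophage barcodes 26.3% in library 1 and 11.1% in library 2 had a UMI of Gzmd to Gzmg, at median depths of 10775.5 and 11494 UMIs, and none reached 50 per 10000. Thinned to 3000 UMIs the shares were 6.67% and 3.75% in macrophages, 17.6% and 12.7% in granzyme-low NK barcodes, and 17.5% in the B cells of library 1. In library 2, 0 of the 23 B cells of that depth had such a UMI (exact 95% upper limit 14.8%). A UMI or so in a granzyme-low NK barcode was therefore not read as expression.

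**Figure D4:**
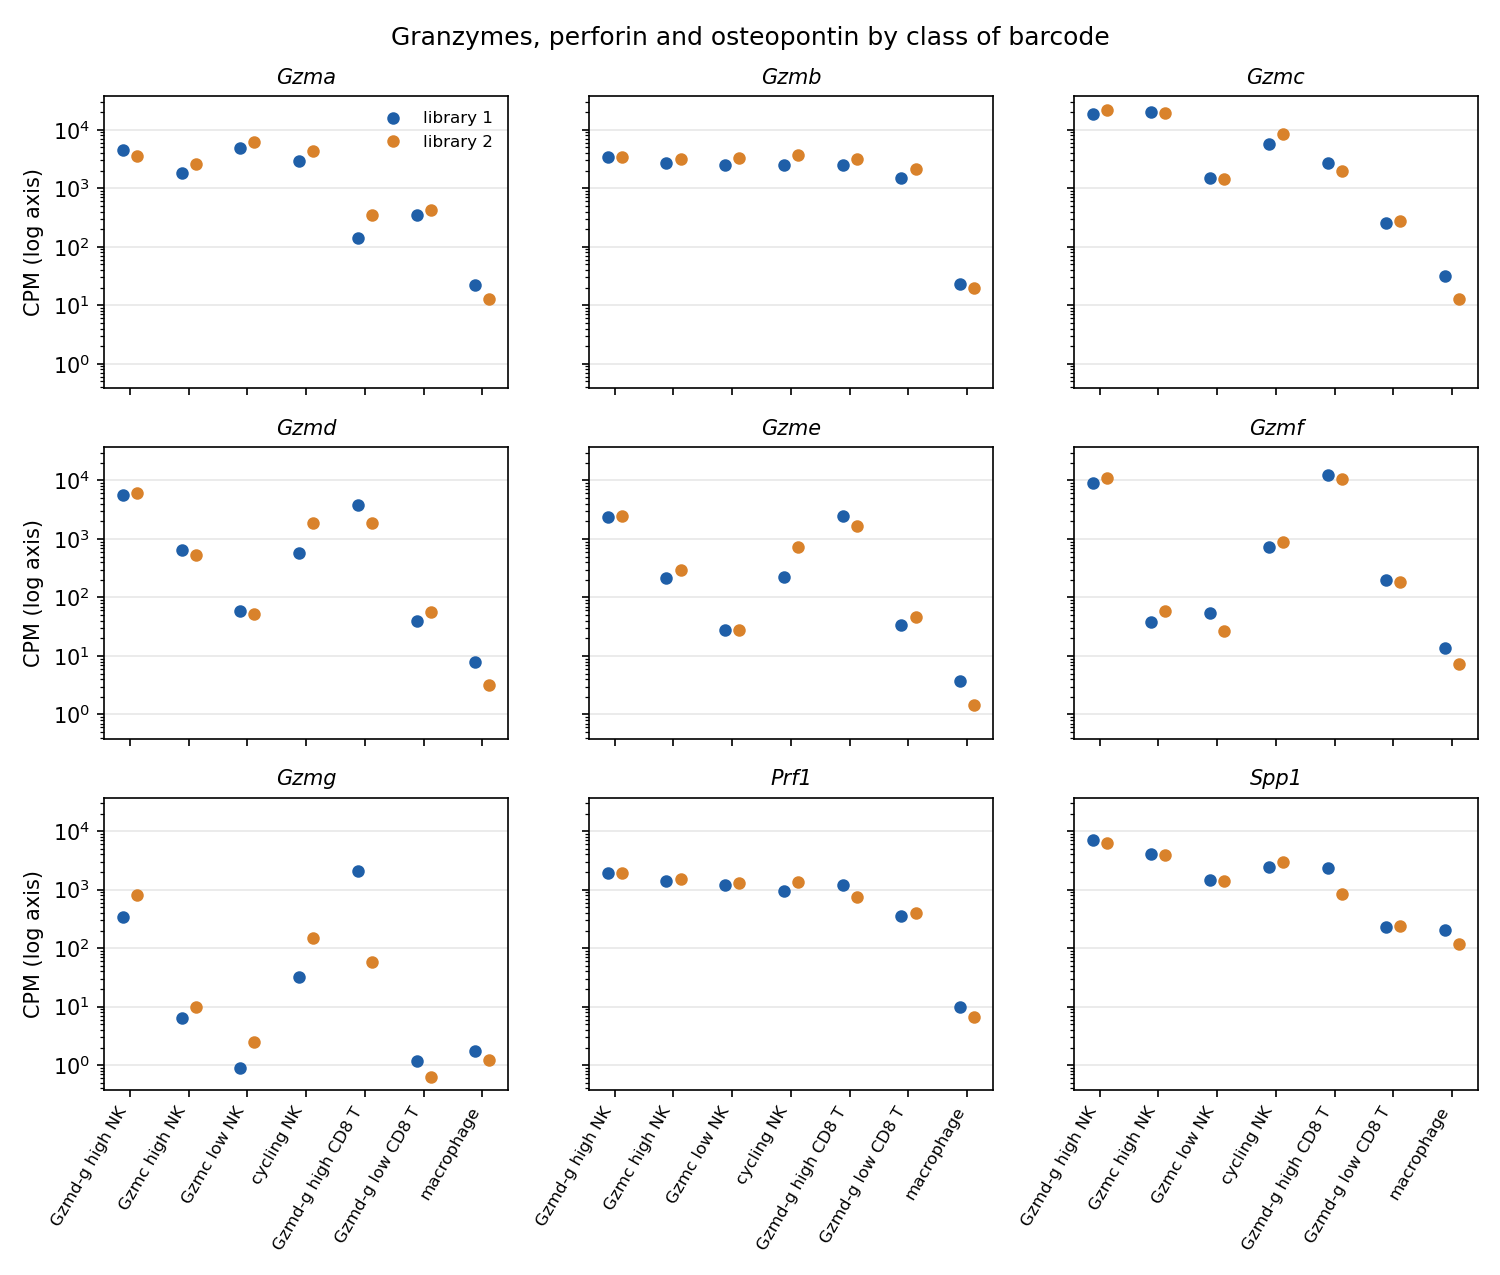
CPM on a log axis (y) of 9 genes in 7 classes of barcode (x), library 1 in blue and library 2 in orange, each point the sum over the barcodes of a class. Gzmc high and Gzmc low NK are granzyme-low NK barcodes with Gzmc at 100 or more and at under 100 per 10000. Gzmc is at 18925 and 21934 CPM in granzyme-high and at 19983 and 19015 in Gzmc-high NK barcodes, and Gzmf at 8898 and 10843 in the former and 37.3 and 58.2 in the latter.

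Between the libraries, 14 genes were at least 2-fold higher in library 2 and 18 lower within the granzyme-high barcodes, 0.481% and 0.619% of 2910 genes with 50 CPM or more in either. Gzmg was among the higher, at 338 and 824 CPM in library 1 and 2, with a log2 ratio of 1.28 (1.10 to 1.47). Without the barcode richest in Gzmg in each library, added after the data had been seen, the Gzmg ratio was 1.49 and 16 and 17 genes passed. Prss2, a trypsinogen, was at 21.7 and 72.6 CPM, with 30.4% and 28.8% of its UMIs from 1 barcode in each library. Serpinb1a, an inhibitor of neutrophil proteases, was at 29.2 and 73.6 CPM, with 29.0% and 12.2% of its UMIs from 1 barcode. Tsc22d3, a glucocorticoid-induced gene, was at 39.5 and 93.5 CPM.

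Several of these differences were found in the granzyme-low NK barcodes as well. Rpl10-ps3 was at 60.3 and 207 CPM in granzyme-high and 57.7 and 215 in granzyme-low ones, and Wdfy1 at 54.6 and 172 against 63.2 and 140. Rpl9-ps6 and Gm47283 had log2 ratios of 1.38 and 1.17 in granzyme-high and 1.30 and 1.36 in granzyme-low barcodes. Rpl35 had -1.63 and -1.68, Gpx4 -1.53 and -1.07, Mir6236 -2.42 and -2.00, Rps10-ps2 -2.68 and -2.15, Apoe -1.93 and -1.22, and Ifi27l2a -1.73 and -1.47. The pseudogenes among them share sequence with their parent genes, and their counts are uncertain.

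For Ccl5, Ifi44, Prss2, Serpinb1a and Tsc22d3 the ratio of the libraries in granzyme-high barcodes was further from that in granzyme-low ones. These differences were not tested. Ccl5 was at 59.3 and 16.9 CPM in the former (log2 ratio -1.78, -2.68 to -1.02) and at 1454 and 1660 in the latter (0.19). Its share of granzyme-high barcodes was inside the wide intervals of B cells, so no difference of expression is read from it. Ifi44, an interferon-stimulated gene, was at 97.0 and 35.8 CPM (-1.42, -2.03 to -0.88) and at 124 and 87.98 (-0.50). The log2 ratios were 1.72 in granzyme-high and 0.03 in granzyme-low barcodes for Prss2, 1.32 and 0.40 for Serpinb1a, and 1.23 and 0.49 for Tsc22d3. With no replicate library, none of this can be told apart from a difference between genotypes, animals, preparations or sequencing.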

How the data were processed

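Lung CD45+ cells of 1 WT and 1 Siah1a/2 KO sample were sequenced with 10x Genomics 3′ chemistry, per the labels. The values are the authors' deposited UMI counts, whole numbers with no normalization. Cell Ranger 6.1.2 and mm10 are named in the submitters' processing notes. The sources used here do not give the gene annotation. Library 1 held 8522 barcodes and 86227008 UMIs and library 2 6479 and 59459790. The filter left out 456 and 366, and the median depth kept was 8661 and 7875 UMIs.

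Counts were summed per class and library, scaled to CPM (per 1000000 UMIs) and compared as log2 ratios with a pseudocount of 0.5 UMI and exact conditional binomial 95% intervals (scipy 1.17.1), shares with Clopper-Pearson intervals. These cover counting error only. Cells are not replicates, so no test was run. A gene was called at 2-fold or more, the same way in both libraries, and at 50 CPM or more in the higher state of each. The 15 genes of the rule were left out of such counts. The intervals and calls were checked on simulated counts, drawn independently from summed profiles. These lack the clustering of UMIs in single barcodes, so the check does not cover it. Where rows shared a symbol, the row with the most UMIs kept it.

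Named genes were the 12 highest and 12 lowest by the smaller log2 ratio of the libraries, 8 each way between libraries, the 8 most like the granzyme sum, and from each list the largest changes and defining members; some are not reported here. The members and the 17 gene lists were chosen with earlier results of these data known. The classes were set by UMI limits, with no clustering and no doublet caller. Alternatives were the granzyme limit, cell filter, NK limits, thinning, gene minimum, CPM base and averaging. Sequences are RefSeq's and GENCODE M21's on GRCm38, the assembly that mm10 names.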

Additional observations from a re-analysis of the deposited data

Results flagged for a closer look

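Among the barcodes that the filter on genes and mitochondrial UMIs left out, 8 of 456 in library 1 and 3 of 366 in library 2 had Gzmd to Gzmg at 50 or more per 10000 UMIs. Of these, 1 in library 1 and 0 in library 2 met the other limits of the rule. They stand here because no comparison above uses them.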

How the results depend on the processing

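No paired analysis was possible because the labels give no replicate numbers and tie no barcode ending to a sample. With a granzyme limit of 25 per 10000 the NK shares were 9.25% and 10.1% and the CD8 T shares 8.92% and 10.96%, and at 100 they were 4.68% and 4.56%, and 2.99% and 4.14%. A stricter NK rule gave 4.46% in library 1. Genes higher against all granzyme-low NK barcodes numbered 33 with means over barcodes, and at a 10 CPM minimum 65 were higher and 134 lower. Against Gzmc-high ones, higher and lower genes numbered 3 and 5 at a limit of 25, 4 and 5 at 100, 8 and 10 under the stricter rule, 5 and 6 after thinning, 18 and 21 at 10 CPM, 8 and 7 with the low state under 10 per 10000, and 3 and 9 in barcodes with 2 or fewer UMIs of 5 myeloid and antigen-presentation genes (myeloid-poor, added after the data were seen). Between libraries they numbered 36 higher at a limit of 100, 152 and 130 under the stricter rule, 156 and 164 after thinning, 25 higher with means over barcodes, 254 and 189 at 10 CPM, and 66 and 56 in myeloid-poor barcodes; fewer UMIs entered all of these but the means and the 10 CPM minimum. Of 20 higher and 51 lower genes, 15 and 18 were also called after thinning. Of the 5 higher and 2 lower genes against Gzmc-high barcodes, thinning shared 1 and 1, and the myeloid-poor barcodes 3 and 0.

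Of 1080 ratios to all granzyme-low barcodes 8 changed sign. The stricter rule gave 0.28 for Il1b (library 2) and 0.47 for H2-Eb1 (library 1). Thinning gave 0.044 for Cd74 (library 2), 0.63 for Atf3 (library 1) and -0.19 for Gzmb (library 2). Gzmb in library 2 was also at -0.17 with means over barcodes and -0.054 in myeloid-poor barcodes, and Il1b there at 1.05. The cause was not tested.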

Other observations

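All kept barcodes with Gzmd to Gzmg at 50 or more per 10000 numbered 257 in library 1 and 271 in library 2. NK barcodes by the rule made up 71 and 68 of them, cycling NK 8 and 18, CD8 T 119 and 147, cycling barcodes with T-cell transcripts 33 and 19, other T-cell barcodes 17 and 17, and all else 9 and 2. NK and T barcodes together thus held nearly all of them in both libraries.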
